A study of Macaca mulatta with 8 samples.

Results

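Rhesus macaque regulatory T cells that had been transferred and were recovered from blood on day 3 are set here against endogenous regulatory T cells sorted from blood of the same day, within the cells that the authors named effector in each. The transferred effector class held 1124 cells, which were the cells of the CFSE-positive day 3 library that carry the authors' finer name for transferred effector Tregs. They were 27.1% of that library's 4142 cells. The endogenous effector class held 461 cells, which were the cells of the endogenous day 3 library with the authors' name for endogenous effector Tregs, 13.8% of 3347. Together they were 1585 of the 25397 cells in the series.

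The series profiled 4 sorted blood populations on day 3 and day 20 after adoptive transfer with the 10x droplet method, in 8 libraries and with 1 library per population and day. The transferred cells had been sorted on the dye CFSE alone, a stain whose amount per cell drops with each division, and are taken as the transferred cells from the title of the series. The endogenous cells had been sorted as CD3-positive, CD4-positive, CD25-high and CD127-low, so IL2RA, which encodes CD25, and IL7R, which encodes CD127, were gated in the endogenous class and not in the transferred one. All samples were frozen blood mononuclear cells, thawed on 1 day and enriched for CD4-positive cells before the sort. The labels name no animal, no donor relation, no culture step and no drug for either group, so whether the classes come from the same animal was not given.

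Regulatory T cells, or Tregs, depend on the transcription factor FOXP3 and on IL-2, which they bind through CD25, and they restrain other immune cells through surface molecules such as CTLA4. Naive-like Tregs express the transcription factors LEF1 and TCF7, whereas effector Tregs lower them and gain integrins, chemokine receptors and genes of the S100, annexin and galectin families. Transferred Tregs are usually grown in culture with IL-2 before infusion, although no label says so of these cells.

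UMI counts, which count RNA molecules, were summed over the cells of each class and scaled to the class total and are given as CPM. The transferred class summed to 3302586 UMIs with a median of 2744 per cell, and the endogenous class to 1662752 UMIs with a median of 3363 per cell. After each cell was thinned to 1000 UMIs, the median cell had 546 genes in the transferred class and 498 in the endogenous class. Mitochondrial genes took 3.61% of UMIs in the transferred and 3.95% in the endogenous class, and ribosomal protein genes took 27.4% and 30.2%, in the same order. The classes shared 3 cell barcodes. Of the 1124 transferred cells, 1123 lay in the authors' cluster 1, and of the 461 endogenous cells, 454 lay in cluster 3 and 7 in cluster 4, so no comparison within a shared cluster could be made. The authors' names come from a column of UMAP clusters whose making is not described. They appear to rest on these same counts and they also separate the libraries, so every difference below describes 2 classes in 1 library each, and no test or p-value is given. All intervals are 95% intervals that cover counting error only.

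Both classes carried Treg markers, and the effector markers of the transferred class were mixed. FOXP3 was at 346 CPM in the transferred and 235 CPM in the endogenous effector class, against 17.5 CPM in the conventional (Tconv) class of the endogenous library, and IL2RA was at 774, 766 and 122 CPM in the same order. Within the transferred library, the effector class had 440 CPM of S100A4, against 202 CPM in the class named in transition and 93.4 CPM in the naive class. PRDM1, a transcription factor of effector cells, was at 136 CPM in the transferred effector class and 81.5 CPM in the endogenous naive class. LEF1 and TCF7, transcription factors of naive cells, were lower than in the endogenous naive class, at 47.8 and 32.4 CPM in the transferred effector class against 160 and 75.8 CPM. Set against the same endogenous naive class, S100A4 and ITGB1 were also lower in the transferred effector class, at 440 against 551 CPM and 28.5 against 203 CPM. ICOS was at 36.3 against 31.8 CPM. ANXA1, at 39.4 against 237 CPM, did not mark effector cells here, as the endogenous effector class held 214 CPM. Other effector and memory genes were higher than in the endogenous naive class, with VIM at 1485 against 850 CPM, S100A6 at 801 against 649 CPM, LMNA at 112 against 20.1 CPM, LGALS3 at 385 against 81.8 CPM and TNFRSF18 at 326 against 33.3 CPM. The name effector is therefore used here as the authors' class name.

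Of 2473 genes with at least 50 CPM in a class, 94 (3.8%) were at least 2-fold higher in the transferred class and 106 (4.29%) were at least 2-fold lower. These ratios are log2 ratios of transferred over endogenous CPM after adding 10 CPM to both, which shrinks the ratios of weakly expressed genes. The median log2 ratio over the tested genes was 0.21, and 69.5% of them lay above 0. TMM scaling moved that median by -0.17 and median-of-ratios scaling by -0.16. The median-of-ratios factors were 1.5 and 0.667, because the median ratio of UMIs fell on 2.25, a value that 45 genes share, with a median of 4 UMIs in the endogenous class, and both scalings rest on the same pair of summed profiles. The share of called genes that were higher was 47.0% unscaled, 28.7% with TMM and 30.5% with median-of-ratios factors. All 106 lower genes remained called with both scalings, and 60 of the 94 higher genes did so with TMM. At least 4-fold differences numbered 13 higher and 28 lower.

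**Figure D1:**
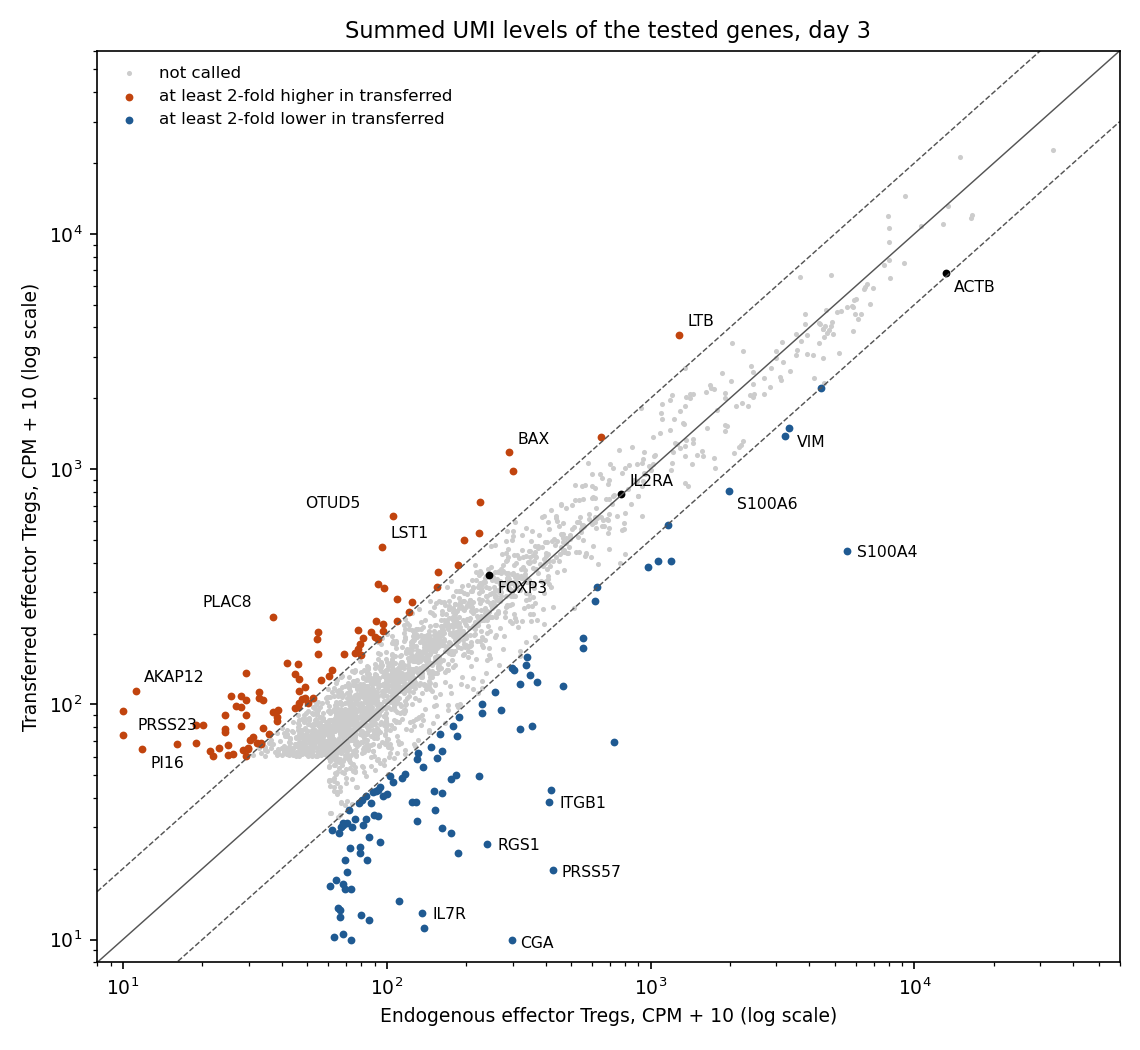
Summed levels of the 2473 tested genes in transferred (vertical axis) and endogenous (horizontal axis) effector Tregs of day 3, as CPM + 10 on log axes; the solid line marks equal levels, the dashed lines 2-fold, and black points are named genes that were not called. S100A4, PRSS57, ITGB1 and CGA lie far below the lines, BAX, OTUD5 and LTB above them, and FOXP3 and IL2RA between them.

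Several targets of p53, the transcription factor that answers DNA damage and other stress, were higher in the transferred class. Of 10 tested members of the list, 4 were called higher and 0 lower, beside 3.8% and 4.29% of all tested genes. All 10 had ratios above 0, beside 69.5% of all tested genes, and the median log2 ratio was 0.85 beside 0.21 over all genes. BAX, which permeabilises mitochondria during apoptosis, was at 1168 CPM in transferred and 282 CPM in endogenous cells, a ratio of 4.14 (3.76 to 4.57). ZMAT3, an RNA-binding protein induced by p53, was at 72.1 and 10.2 CPM in the same order, and GADD45A, a growth arrest protein, at 68.4 and 14.4 CPM. RPS27L, a ribosomal-like protein under p53 control, was at 1355 CPM in transferred and 637 CPM in endogenous cells, and it was the call of this list that was lost with TMM, where its log2 ratio was 0.89. Members below the 50 CPM minimum went both ways. The cell cycle inhibitor CDKN1A was at 47.2 CPM in transferred and 6.62 CPM in endogenous cells. Over the alternatives the log2 ratio lay between 0.40 and 1.08 for TIGAR, between -0.18 and 0.07 for FDXR, and between -0.68 and -0.01 for SESN1. CCNG1, TRIAP1 and XPC had log2 ratios of 0.78, 0.87 and 0.84 and were not called. Besides BAX, none of the other 4 tested pro-apoptotic genes was called, and none of the 3 tested anti-apoptotic genes, BCL2, BCL2L2 and TRAF1.

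The BAX difference ran through most cells rather than a few. After thinning, 64.8% of transferred cells (62.0 to 67.6%) held a BAX UMI, against 24.1% of endogenous effector cells (20.2 to 28.2%) and 11.3% of Tconv cells, whose median depth was 3032 UMIs before thinning. The 5 richest cells held 1.76% of the BAX UMIs of the transferred class. BAX and RPS27L were also graded within the transferred cells. BAX was at 1168 CPM in the effector class, 811 CPM in the in-transition class and 512 CPM in the naive class on day 3, and at 265 and 258 CPM in the in-transition and naive classes of day 20. RPS27L was at 1355, 886, 663, 427 and 344 CPM in the same order.

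Of 12 tested proliferation and cell cycle genes, 2 inhibitors were higher and 1 gene of dividing cells was lower in the transferred class. Over all tested genes 3.8% were called higher and 4.29% lower. The median log2 ratio of the list was 0.36 beside 0.21 over all genes, and 7 of the 12 lay above 0, or 6 with TMM, where the median was 0.18. CDKN2D, which encodes the inhibitor p19, was at 301 CPM in transferred and 87.8 CPM in endogenous cells, and CDKN2A, the locus of the inhibitor p16, at 82.7 and 27.1 CPM. CDKN1B and CDKN2C had log2 ratios of 0.99 and 0.98 and just missed the threshold. STMN1, a microtubule regulator of dividing cells, was at 181 CPM in transferred and 544 CPM in endogenous cells. MKI67 was at 5.45 and 40.3 CPM, UBE2C at 0.91 and 27.1 CPM, and CENPF at 5.15 and 32.5 CPM, all below the 50 CPM minimum, while TK1 and CCNB2 had no UMI in transferred cells and 31.3 and 24.7 CPM in endogenous cells. Few cells carried these genes in the endogenous class. The 5 richest cells for each gene held 82.2% of its UMIs for UBE2C, 55.8% for TK1, 40.7% for CENPF, 34.1% for CCNB2 and 25.4% for MKI67. Cells with a UMI of MKI67, TOP2A, UBE2C or CCNB2 were 2.85% of transferred and 17.1% of endogenous effector cells. Without them STMN1 was at 183 CPM in transferred and 212 CPM in endogenous cells, so its call was lost. PCNA, the replication clamp, was not called, at 147 CPM in transferred and 94.4 CPM in endogenous cells, and its log2 ratio lay between 0.41 and 1.27 over the alternatives. Without the cells holding cycling genes it was at 148 CPM in transferred and 55.4 CPM in endogenous cells, while all 30 genes with the largest differences (15 per direction) remained called.

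The largest ratios among the higher genes belonged to genes almost silent in the endogenous class. AKAP12, a scaffold for protein kinase A, had 344 UMIs in transferred cells (104 CPM) and 2 UMIs in endogenous cells (1.20 CPM), a ratio of 86.6 (23.8 to 718). PRSS23, a serine protease, was at 83.9 CPM in transferred cells and had no UMI in endogenous cells, which makes it at least 46.5-fold higher against a floor of 3 UMIs in the class. PI16, a peptidase inhibitor found on a subset of human Tregs, was at 54.5 CPM in transferred cells and at 1.80 CPM, or 3 UMIs, in endogenous cells. These genes were thus present in transferred cells and near the detection floor in endogenous ones. LRRC32, which presents latent TGF-beta on activated Tregs, went the same way below the 50 CPM minimum, at 42.1 CPM in transferred and 2.41 CPM in endogenous cells. AKAP12 was found throughout the transferred library, at 104, 104 and 80.5 CPM in its effector, in-transition and naive classes of day 3, while PRSS23 fell off across them, at 83.9, 27.4 and 12.9 CPM. The naive class of that library held 123 cells, so its low levels rest on few UMIs.

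Better expressed genes were also higher. OTUD5, a deubiquitinase, was at 621 CPM in transferred and 95.6 CPM in endogenous cells, and after thinning 41.6% of transferred cells, 8.89% of endogenous effector cells and 13.1% of Tconv cells held it. LST1, a leukocyte membrane protein, was at 458 and 86.0 CPM in transferred and endogenous effector cells. PLAC8 was at 225 CPM in transferred and 27.1 CPM in endogenous effector cells, where 5 cells held 80% of its UMIs. PLAC8 was about as high in the endogenous naive class, at 227 CPM, so for PLAC8 the endogenous effector class was the low one. LST1 was at 242 CPM in the endogenous naive class, between the transferred and the endogenous effector class. OTUD5 was at 233 CPM in the endogenous naive class and at 357 and 319 CPM in the in-transition and naive transferred classes of day 3, below the 621 CPM of the transferred effector class. MPP1, a membrane scaffold protein, was at 127 and 19.2 CPM in transferred and endogenous effector cells, and at 12.5 CPM in the endogenous naive class. FIG4, a phosphoinositide phosphatase, and ARG2, the mitochondrial arginase, were at 99.0 and 80.2 CPM in transferred cells, against 18.0 and 14.4 CPM in endogenous cells. DDIT4, an inhibitor of the mTORC1 kinase, was at 193 CPM in transferred and 45.1 CPM in endogenous cells of day 3, but at 101 CPM in endogenous effector cells of day 20. VSIG1 and PTOV1 completed the 15 largest, at 72.1 and 88.4 CPM in transferred against 9.02 and 16.8 CPM in endogenous cells.

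Naive and quiescence genes were split. Of 12 tested members, 4 were called higher and 1 lower, beside 3.8% and 4.29% of all tested genes, with a median log2 ratio of 0.67. SATB1, a chromatin organiser that FOXP3 represses, was at 99.0 CPM in transferred and 15.6 CPM in endogenous cells. LTB, the membrane lymphotoxin that organises lymphoid tissue, was at 3717 and 1275 CPM, and 94.0% of transferred against 61.2% of endogenous effector cells held it after thinning. TOB1, an inhibitor of T cell proliferation, was at 181 CPM in transferred and 71.6 CPM in endogenous cells. With TMM 3 members were called higher and 1 lower. IL7R was the lower gene, at 3.03 CPM in transferred and 126 CPM in endogenous cells, although the endogenous sort and not the transferred one was gated on low CD127. LEF1 and TCF7, under the minimum, were at 47.8 and 32.4 CPM in transferred and 46.9 and 24.7 CPM in endogenous effector cells.

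The memory list of S100, annexin and galectin genes had 6 members called lower and 0 called higher of 20 tested. Over all tested genes 4.29% were called lower and 3.8% higher. The median log2 ratio of the list was -0.33, and 8 of the 20 lay above 0. S100A4, a calcium-binding protein of memory and effector T cells, was at 440 CPM in transferred cells (417 to 463) and 5544 CPM in endogenous cells (5431 to 5658), which was 12.6-fold lower (11.9 to 13.3). After thinning, the median transferred cell held 0 and the median endogenous cell 5 S100A4 UMIs, and 17.3% of transferred, 76.4% of endogenous effector and 34.6% of Tconv cells held any. ANXA1, an annexin with anti-inflammatory functions, was at 39.4 CPM in transferred and 214 CPM in endogenous cells, S100A6 at 801 and 1965 CPM, and the intermediate filament vimentin (VIM) at 1485 and 3326 CPM. GPR183 and RGS1 were the other members called. The family did not move as a block, as S100A10 and S100A11 had log2 ratios of -0.33 and -0.34, LGALS1 and LGALS3 -0.64 and -0.67, ANXA2 -0.45, and EMP3 and TAGLN2 0.66 and 0.77.

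**Figure D2:**
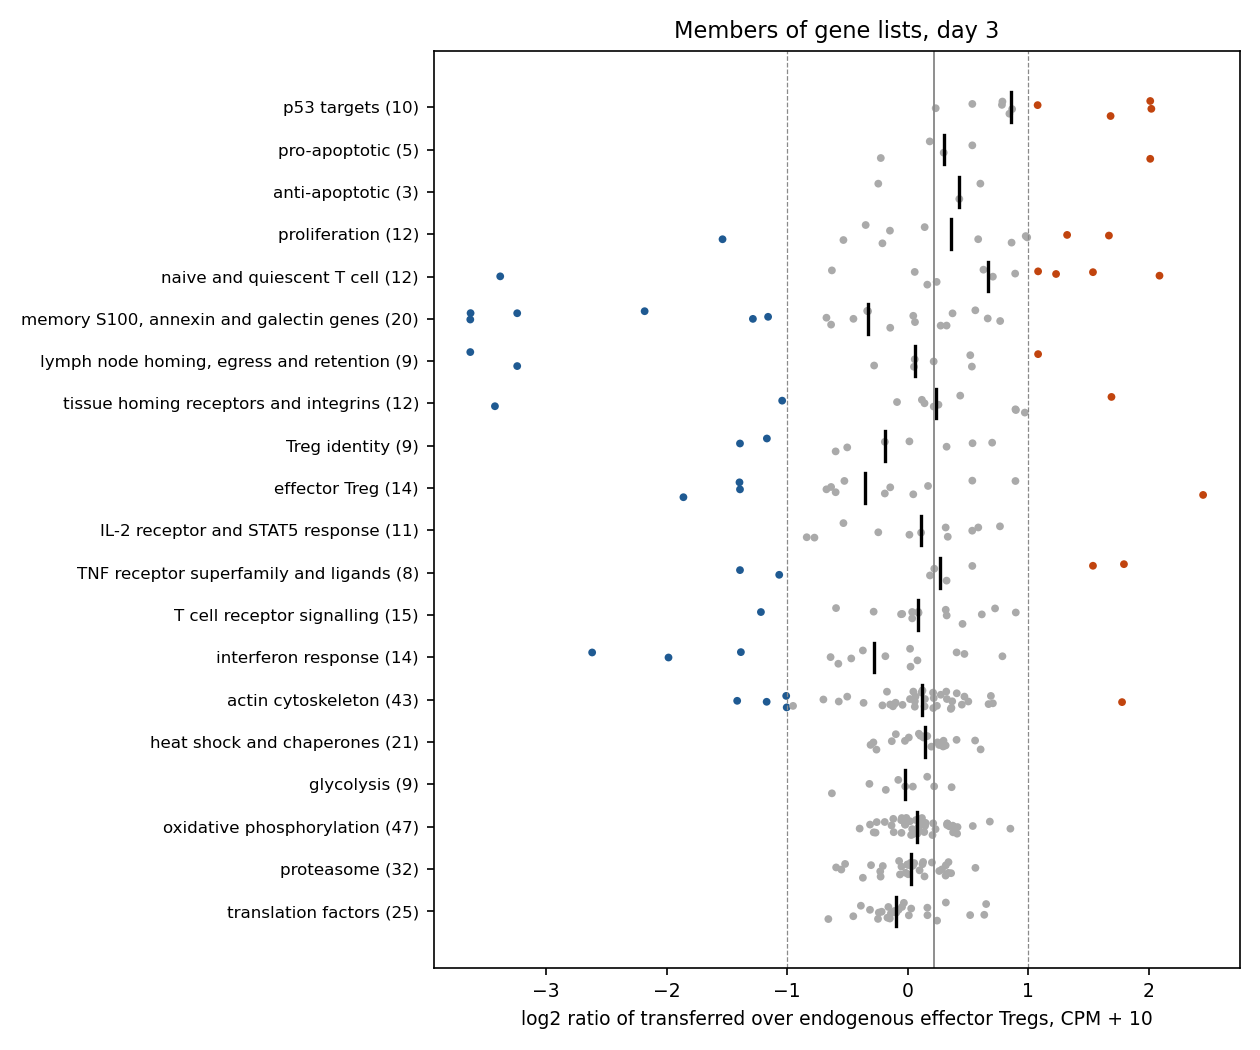
Log2 ratios of transferred over endogenous effector Tregs for the tested members (number in parentheses) of 20 of the gene lists; orange points were called higher, blue points lower and grey points neither, black bars are list medians, the grey line is the median of all tested genes (0.21) and dashed lines mark 2-fold. The p53 targets lie to the right, 6 memory genes to the left of the left dashed line, and the members of the metabolic lists between the dashed lines.

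A pair of secretory genes marked part of the endogenous effector cells and was nearly or wholly undetected in transferred ones. CGA, the common alpha subunit of the glycoprotein hormones, had 0 UMIs in transferred cells and 289 CPM in endogenous cells, which makes it at least 318-fold lower against a floor of 3 UMIs. No CGA UMI was seen in 1124 transferred cells, which allows a share of up to 0.267% of cells with a UMI, whereas 29.3% of endogenous effector and 0.344% of Tconv cells held one. PRSS57, a serine protease known from human neutrophil granules, was at 9.69 CPM in transferred and 419 CPM in endogenous cells, which was 43.2-fold lower (30.3 to 63.7). In the endogenous class 135 cells held CGA and 163 held PRSS57, and 96 held both. PRSS57 was thus found in 71.1% of the cells with CGA and in 35.4% of the class. CGA and PRSS57 stayed low in the endogenous naive class, at 3.79 and 4.17 CPM, and high in the endogenous effector class of day 20, at 734 and 397 CPM.

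Several receptors for migration and tissue retention were lower in transferred cells. Of 9 tested genes of lymph node homing, egress and retention, 2 were called lower, GPR183 and RGS1, and 1 higher, a call that was lost with TMM. The list as a whole was not lower, with a median log2 ratio of 0.06 and 6 of 9 above 0. Over all tested genes 4.29% were called lower and 3.8% higher. ITGB1, the beta-1 integrin chain, was at 28.5 CPM in transferred and 403 CPM in endogenous cells, and its partner ITGA4 at 28.2 and 68.6 CPM. GPR183, an oxysterol receptor that positions cells in lymphoid tissue, had 4 UMIs in transferred cells (1.21 CPM), against 129 CPM in endogenous cells. RGS1, a regulator of chemokine receptor signalling, was at 15.4 and 230 CPM, and FUT7, a fucosyltransferase of skin-homing T cells, at 0.30 CPM (1 UMI) and 52.9 CPM. The chemokine receptors CCR6, CCR9 and CCR10 were below the minimum, at 0.61, 0.30 and 3.33 CPM in transferred against 40.3, 43.9 and 33.1 CPM in endogenous cells. The ITGB1, GPR183 and RGS1 levels were also low in the other transferred classes of day 3 (22.4 and 41.8 CPM, 3.52 and 12.9 CPM, and 19.6 and 9.66 CPM), while the endogenous naive class held 203, 87.1 and 282 CPM. Of 12 tested tissue homing genes, 2 were lower and 1 higher, which was PECAM1, an adhesion molecule of naive T cells, at 139 CPM in transferred and 36.1 CPM in endogenous cells. The median log2 ratio of that list was 0.24, and 9 of the 12 lay above 0. ITGB7, ITGAE and ITGB2 were not called, with log2 ratios of 0.44, 0.89 and 0.12.

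Of 9 tested genes of Treg identity, 0 were called higher and 2 lower, beside 3.8% and 4.29% of all tested genes, and the median log2 ratio was -0.19. FOXP3 had a log2 ratio of 0.54 and IL2RA of 0.01. After thinning, 27.4% of transferred (24.8 to 30.1%) and 21.5% of endogenous cells (17.8 to 25.5%) held FOXP3, and 50.9% and 52.5% held IL2RA, against 1.28% and 11.8% of Tconv cells. TNFRSF18, the receptor GITR, was at 326 CPM in transferred and 259 CPM in endogenous cells, and RTKN2 at 107 and 61.9 CPM. The genes called lower were CTLA4, at 55.7 CPM in transferred and 138 CPM in endogenous cells, and TNFRSF1B, the TNF receptor that supports effector Tregs, at 124 and 340 CPM. With a pseudocount of 30 CPM the CTLA4 call was lost, at a log2 ratio of -0.97. IKZF2 was too low to compare, at 11.5 and 12.6 CPM.

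Of 14 tested effector Treg genes, 1 was higher (PI16) and 3 were lower, beside 3.8% and 4.29% of all tested genes. The median log2 ratio of the list was -0.36 beside 0.21 over all genes, and 5 of the 14 lay above 0. The lower ones were TNFRSF1B, the adaptor SAMSN1 at 40.3 CPM in transferred and 173 CPM in endogenous cells, and the nuclear lamina gene LMNA at 112 and 310 CPM. PRDM1, BATF and the IL-33 receptor IL1RL1 were not called, at 136, 167 and 220 CPM in transferred and 200, 193 and 194 CPM in endogenous cells. RORA, MAF and IRF4 were below the minimum, at 4.54, 10.6 and 20.9 CPM in transferred and 43.9, 38.5 and 45.7 CPM in endogenous cells. Among 11 tested IL-2 receptor and STAT5 genes none was called either way, and their median log2 ratio was 0.11. CISH, a STAT5-induced inhibitor of cytokine signalling, was at 454 CPM in transferred and 363 CPM in endogenous cells. The TNF family was split, with CD70, the ligand of CD27, at 87.2 and 18.0 CPM and LTB higher, and TNFRSF1B and TNFRSF25 lower, of 8 tested. The CD70 difference had a ratio of 4.83 (3.31 to 7.30).

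Some interferon-stimulated, cytotoxic and cytoskeletal genes were lower in the transferred class. Of 14 tested interferon genes 3 were lower and 0 higher, beside 4.29% lower and 3.8% higher over all tested genes. The median log2 ratio of that list was -0.28, and 6 of the 14 lay above 0. IFI6 was at 18.5 CPM in transferred and 165 CPM in endogenous cells, the antiviral GTPase MX1 at 7.27 and 58.3 CPM, and ISG15 at 49.4 and 145 CPM, whereas BST2, PSMB9 and OAS1 had log2 ratios of 0.47, 0.02 and 0.08. Of 3 tested cytotoxic genes, GNLY and CST7 were lower, at 23.6 and 20.6 CPM in transferred against 83.0 and 58.3 CPM in endogenous cells. In the endogenous class 5 cells held 37.0% of the GNLY UMIs. The CST7 call was lost after thinning, and when doublet-like cells or cells holding cycling genes were left out. The metallothionein MT1M, which binds metal ions, was at 2.73 and 69.8 CPM. Of 43 tested actin cytoskeleton genes 4 were lower (FLNA, ARPC1A, COTL1 and ACTG1) and 1 was higher (ABI2, at 103 and 22.9 CPM). The actin list as a whole was not lower, with a median log2 ratio of 0.11 and 27 of the 43 above 0. ACTG1 and COTL1 lay at the 2-fold boundary, at 2198 and 571 CPM in transferred against 4419 and 1160 CPM in endogenous cells, and lost their calls when doublet-like cells were left out. Beta-actin (ACTB) lay just inside it, at 6800 and 13161 CPM with a log2 ratio of -0.95. CD48, a costimulatory adhesion molecule, was at 68.4 and 310 CPM. LAT, the adaptor of the T cell receptor, was the 1 gene called of 15 in its pathway, at 40.6 and 108 CPM, while CD3D, CD3E and CD3G had log2 ratios of 0.09, 0.04 and 0.04.

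The remaining genes among the 15 largest lower differences were less easily grouped. AIRE, which drives self-antigen expression in the thymus, was at 19.7 CPM in transferred and 153 CPM in endogenous cells, and TESC at 13.3 and 176 CPM. ICA1 was at 0.61 CPM (2 UMIs) and 58.3 CPM. SPATS2L had 0 UMIs in transferred cells and 63.1 CPM in endogenous cells, at least 69.5-fold lower. DRC1, a protein of motile cilia, was at 2.12 and 75.8 CPM, and 5 cells held 33.3% of its UMIs in the endogenous class.

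Of the smaller lists, suppressive mediators had CTLA4 lower of 3 tested, cytokine receptors IL7R lower of 6, co-stimulatory and co-inhibitory receptors CTLA4 and CD48 lower of 5, and immediate early genes PPP1R15A higher of 5, at 91.7 CPM in transferred and 40.3 CPM in endogenous cells. No call was made among the 4 tested NF-kB genes, the 2 tested genes of MHC class II and antigen presentation and the 1 tested T helper lineage gene (STAT3). These lists are small, and over all tested genes 3.8% were called higher and 4.29% lower. The PPP1R15A call was lost with TMM, at a log2 ratio of 0.85, and with TMM the immediate early list had 0 genes higher and 1 lower, and the NF-kB list 1 lower.

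Lists of basic metabolism showed no called gene in either direction, beside 3.8% higher and 4.29% lower over all tested genes. These were oxidative phosphorylation (47 tested, median log2 ratio 0.08), the proteasome (32 tested, 0.03), translation factors (25 tested, -0.10), heat shock proteins and chaperones (21 tested, 0.14) and glycolysis (9 tested, -0.02). Their medians lay below the all-gene median of 0.21, and with TMM the 3 positive ones were also below 0.

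The transferred effector class had no counterpart on day 20, as 0 of the CFSE-positive cells of that day carried its name, and 985 of 1149 carried the name of transferred naive Tregs. The endogenous effector class did, with 444 cells, and was used as another reference that shares the transferred library. Between the endogenous effector classes of day 20 and day 3 themselves, 95 of 2272 genes (4.18%) differed at least 2-fold either way, 72 higher and 23 lower on day 20. The count either way between transferred and endogenous effector cells of day 3 was 200 of 2473 genes. S100A4, ITGB1 and PRSS57 were at 5272, 453 and 397 CPM in endogenous effector cells of day 20, and BAX and LTB at 202 and 856 CPM. RGS1, AIRE and DRC1 were lower on day 20 in the endogenous class, at 71.9, 65.9 and 6.74 CPM, and CCR9 was at 0.75 CPM. TNFRSF1B, LMNA and STMN1 were at 217, 228 and 226 CPM there, and on the CPM + 10 scale they lay less than 2-fold from the transferred class of day 3, LMNA at a log2 ratio of -0.97.

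**Figure D3:**
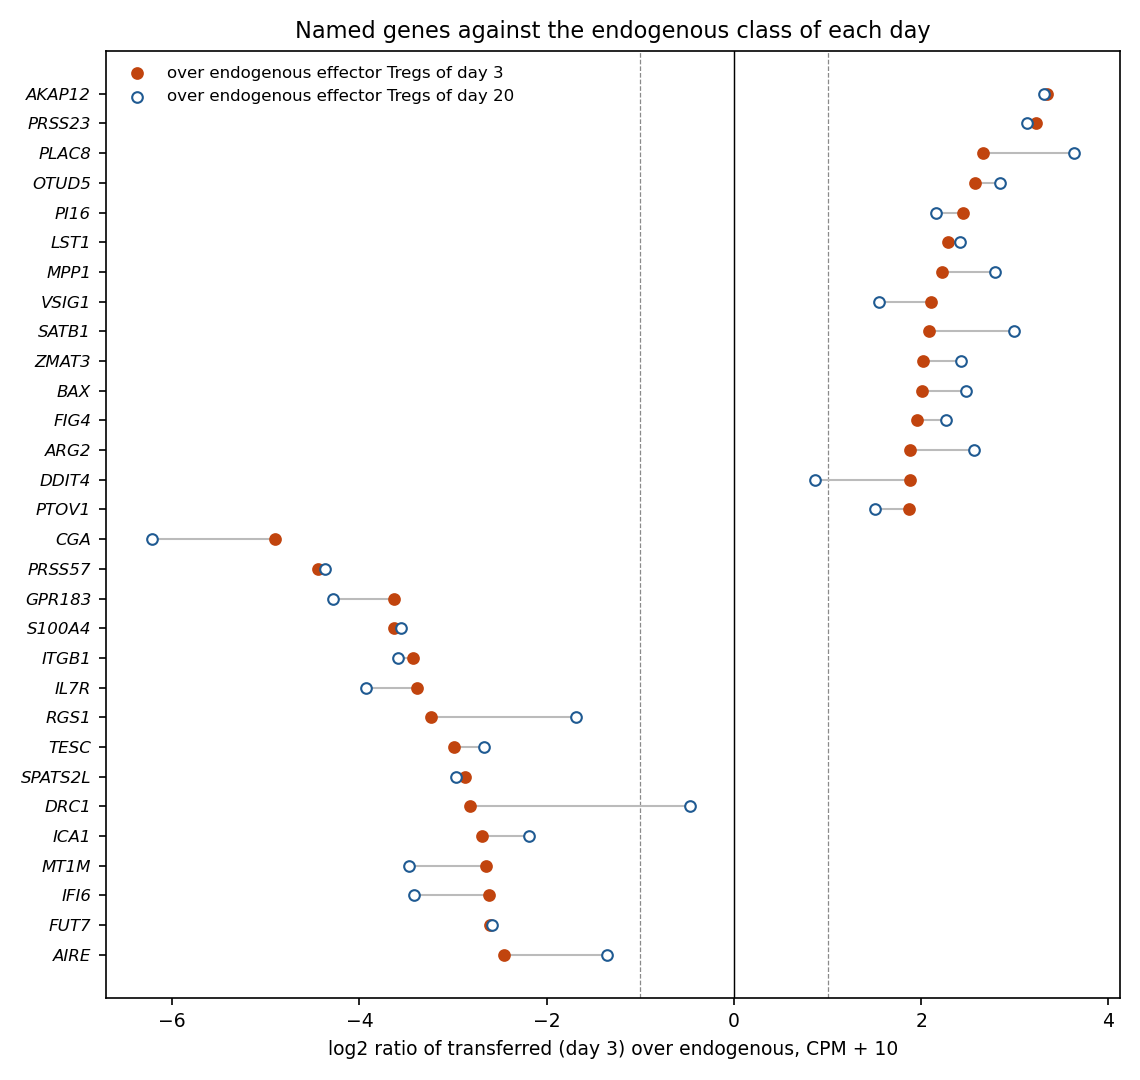
Log2 ratios of transferred effector Tregs of day 3 over endogenous effector Tregs of day 3 (filled) and of day 20 (open) for the 15 higher and 15 lower genes with the largest day 3 ratio; dashed lines mark 2-fold. Both sets of ratios share the transferred library; CGA stands at -4.90 and -6.22, RGS1 at -3.24 and -1.69, and DDIT4 (0.87) and DRC1 (-0.47) lie within 2-fold of the day 20 class.

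Over the authors' classes, some differences were shared by all transferred classes and others were graded between them. AKAP12, ITGB1, GPR183, RGS1 and IL7R had no overlap in level between the 5 transferred classes and the 5 plotted classes of the endogenous libraries. These 5 are among the 30 genes with the largest day 3 ratios. How many of all tested genes show such a gap was not counted, so it cannot be called particular to these genes. BAX, CD70, GADD45A and CDKN2A were highest in the transferred effector class and were graded within the transferred cells of day 3, with CD70 at 87.2, 42.2 and 9.66 CPM in its effector, in-transition and naive classes and at 18.0 and 0.76 CPM in endogenous effector and naive cells. The 9.66 CPM of CD70 rests on few UMIs, as that naive class held 123 cells. CGA, PRSS57, S100A4 and FUT7 were high in the endogenous effector classes. CTLA4 and LGALS3 were raised in the effector class of both origins, at 55.7 and 385 CPM in the transferred effector and 19.3 and 138 CPM in the transferred naive class, and at 138 and 621 CPM in the endogenous effector and 50.8 and 81.8 CPM in the endogenous naive class. CD48 was low in the 3 transferred classes of day 3 at 68.4, 78.6 and 83.7 CPM, but was at 611 and 478 CPM in the transferred in-transition and naive classes of day 20.

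**Figure D4:**
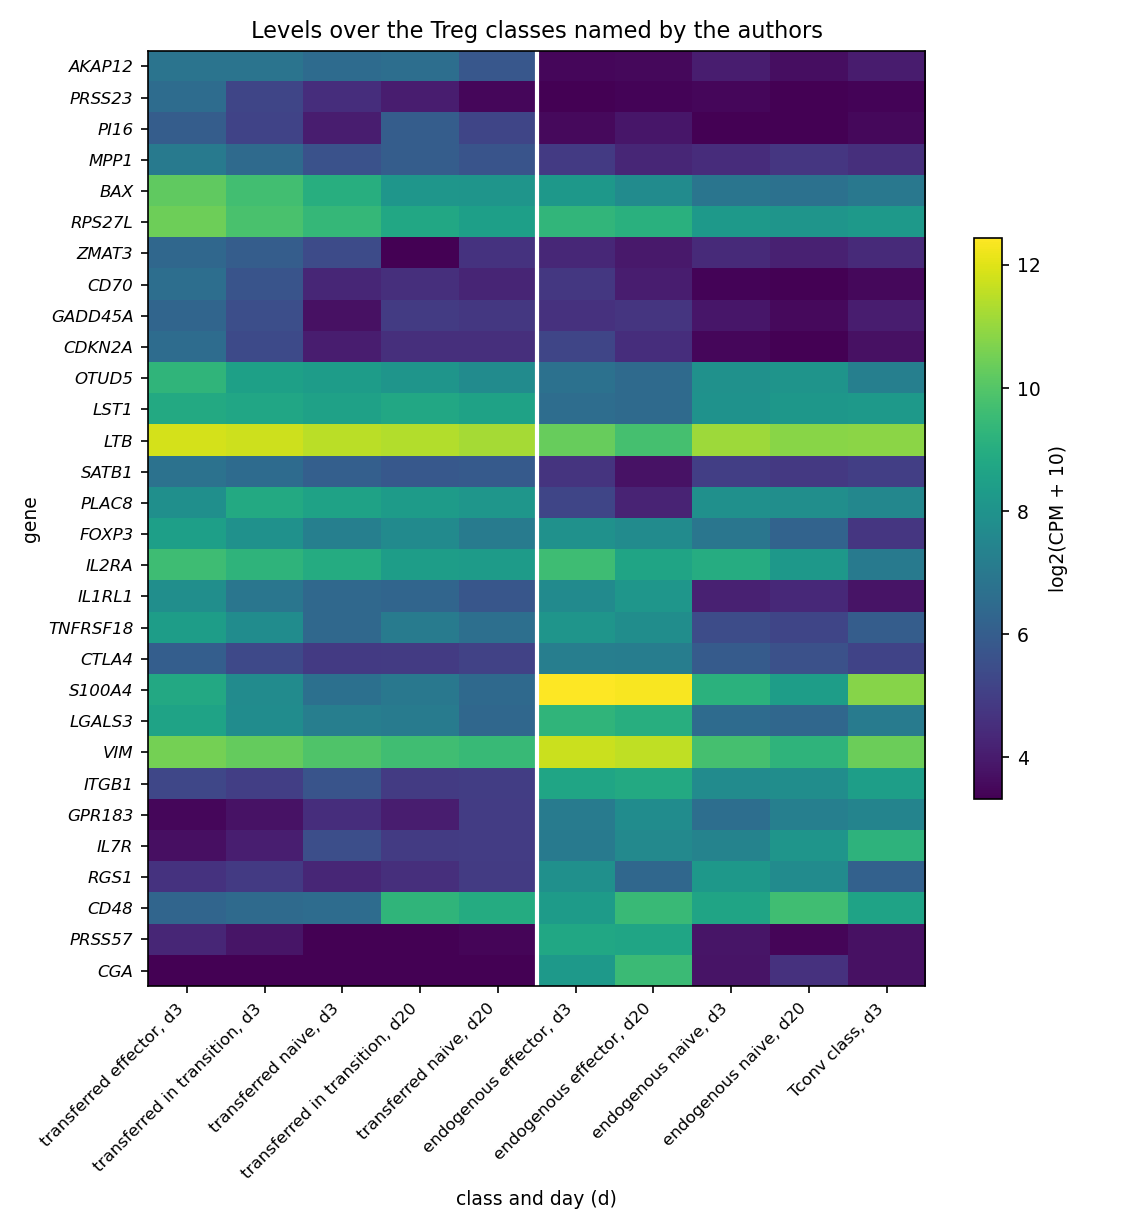
Levels of 30 genes as log2(CPM + 10) over 10 of the authors' classes with at least 50 cells, transferred classes left of the white line and classes of the endogenous libraries right of it; Tconv is the conventional T cell class. AKAP12 is bright in all transferred classes, CGA and PRSS57 in the endogenous effector classes, and BAX falls off from the transferred effector class to the transferred naive class.

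The comparison was repeated in cells that held a FOXP3 UMI. Of the transferred cells 43.5% and of the endogenous effector cells 52.9% held no FOXP3 UMI, and without them all 30 genes remained called. In cells with FOXP3, S100A4 was at 440 CPM in transferred and 6012 CPM in endogenous cells, BAX at 1120 and 295 CPM, and IL7R at 2.62 and 114 CPM. The GNLY, IGHM and CD79A calls were lost there, with GNLY at 25.7 CPM in transferred and 56.8 CPM in endogenous cells. Of the 217 endogenous cells with FOXP3, 65 also held IL7R.

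**Figure D5:**
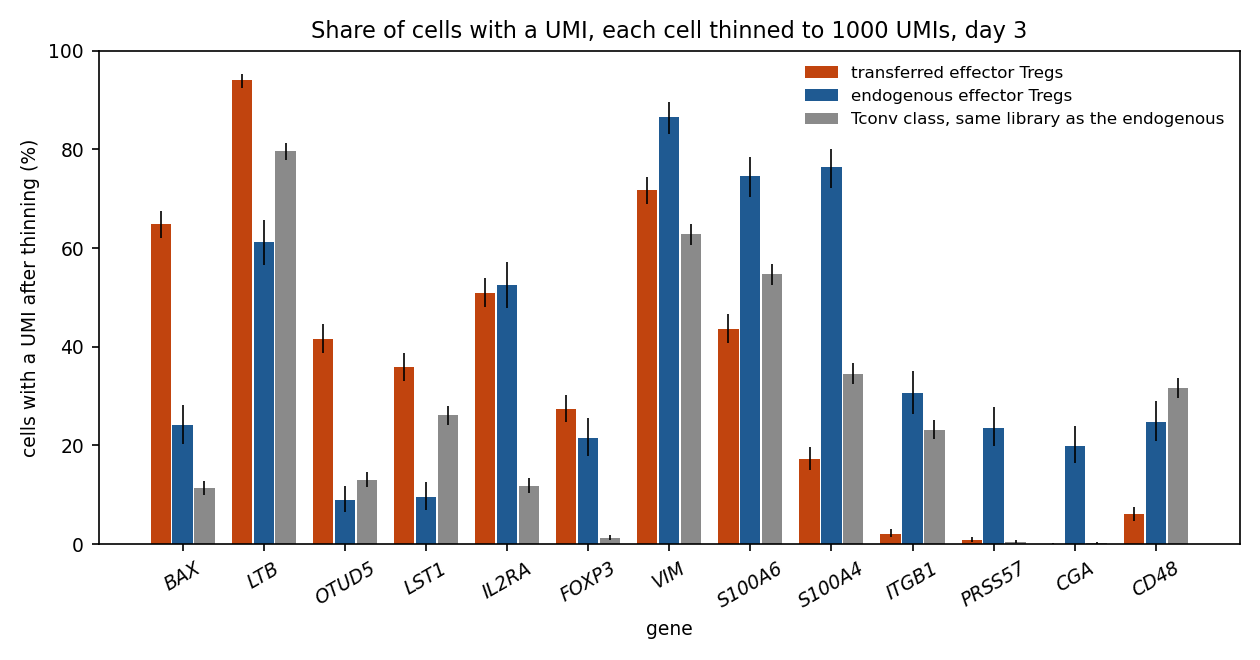
Share of cells with at least 1 UMI after each cell was thinned to 1000 UMIs, with exact binomial 95% intervals, in transferred effector Tregs, endogenous effector Tregs and the Tconv class of the endogenous library. BAX stands at 64.8% of transferred and 24.1% of endogenous effector cells, S100A4 at 17.3% and 76.4%, and IL2RA at 50.9% and 52.5%.

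Several defining markers of other blood cells were not detected, while other members of the same lists were. The B cell genes BANK1, PAX5 and FCRLA had 0 UMIs in both classes, as did the NK cell genes KLRD1, KLRF1 and NCAM1 and the monocyte genes S100A8, S100A9, VCAN and CSF1R. Immunoglobulin transcripts were present, with IGKC at 146 CPM in transferred and 208 CPM in endogenous cells and IGHM at 16.0 and 84.2 CPM, and CD79A was at 53.9 and 18.6 CPM. CD79B was at 72.1 and 87.8 CPM. At least 1 UMI of the B cell list was held by 48.4% of transferred and 57.3% of endogenous cells. The monocyte list summed to 225 CPM in transferred and 124 CPM in endogenous cells, of which CST3 made up 207 and 112 CPM, and 41.9% and 27.1% of cells held a UMI of it. The NK cell list summed to 27.9 CPM in transferred and 85.4 CPM in endogenous cells, mostly GNLY. Hemoglobin genes summed to 296 CPM in transferred and 214 CPM in endogenous cells. At least 3 UMIs of the B cell list were held by 9.25% of transferred and 17.4% of endogenous cells, and at least 3 of the conventional CD4 list, which includes IL7R and ID2, by 1.16% and 13.2%. ID2 itself was at 28.5 CPM in transferred and 114 CPM in endogenous cells. Doublet-like cells were those with at least 3 UMIs of the B cell, monocyte, red cell or platelet list, or with a high UMI total. Leaving out these 229 transferred and 115 endogenous cells kept 29 of the 30 largest differences. CD79A is itself a gene of the B cell list, so its level had to fall. It went below the 50 CPM minimum, at 35.7 CPM in transferred and 12.1 CPM in endogenous cells. Its log2 ratio there was still 1.05. Beyond leaving out these cells and the FOXP3 subset, the part of these transcripts in the differences above was not tested.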

How the data were processed

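Blood mononuclear cells of rhesus macaques were sorted and captured with 10x 3' version 2 chemistry, per the labels' protocols, and Cell Ranger 2.1.1 is named in the submitters' processing notes. The genome build was not given in the sources used here. Deposited by the authors were raw UMI counts per gene and cell (16429 genes, 25397 cells) with library, cluster, class and finer name per cell, and the method behind the names is not stated. All columns were assigned to a library by name.

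Raw counts were summed over the cells of each class and divided by the class total. A gene was called at 2-fold on the CPM + 10 scale with at least 50 CPM in a compared class. Ratios have exact conditional intervals, CPM exact Poisson intervals and shares of cells Clopper-Pearson intervals, at 95%, for counting error only. The text names the 15 largest ratios per direction, without unnamed, mitochondrial and ribosomal genes, and members of 29 gene lists and 10 marker lists at 20 CPM or more, plus markers at lower levels where their absence is described. Of 16429 genes 3154 had no usable name, and 309 identifiers were named from the reference table. The cells and the lists were chosen with earlier results of these data known. Results for some list members are not reported here. All cells were kept and no doublet caller was run. For shares, each cell was thinned to 1000 UMIs, which left out 1 transferred cell and 0 others. Procedures were tested on simulated data. TMM factors came from edgeR 4.0.16 and median-of-ratios factors from DESeq2 1.42.0, for scaling only. Python 3.11.15 with numpy 2.4.6 and scipy 1.17.1 was used.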

Additional observations from a re-analysis of the deposited data

How the results depend on the processing

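The 94 higher and 106 lower genes were recounted under each alternative. The number of higher genes was 60 with TMM factors, 55 with a pseudocount of 30 CPM, 146 with cells thinned to 1000 UMIs and 34 at a 3-fold threshold, and the number of lower genes at 3-fold was 46. With a minimum of 20 CPM there were 156 higher and 176 lower genes, with 100 CPM 47 and 60, and with no minimum 181 and 198. Against the day 20 endogenous class, chosen after seeing the data, 205 genes were lower. Thinning lowers the counts behind each ratio, and the minimum and the threshold set how many genes can be called. The cause of the other shifts was not tested. Within 1.5 times of the main counts were those with median-of-ratios factors (64 higher, 146 lower), named-gene scaling (80 and 125), a pseudocount of 1 CPM (140 and 123), the mean of per-cell CPM (100 and 106), without doublet-like cells (98 and 102) and with matching coarse class (95 and 106). So were those without cells holding cycling genes (98 and 103), with only FOXP3-positive cells (119 and 115) and with 2-fold against both endogenous classes (66 and 82), which were chosen after seeing the data. None of the called named genes or list members changed sign under any of these. All 30 largest remained called in every alternative except a minimum of 100 CPM (17), leaving out doublet-like cells (29) and the day 20 class, alone or with day 3 (27). Of 64 called named genes and list members, 22 fell short of the call in at least 1 alternative other than the 3-fold threshold and the 100 CPM minimum, and 3 of them, RPS27L and PPP1R15A included, under a scaling; LAT, CST7, ITGA4, TNFRSF25, CDKN2A, TOB1 and ID2 were among the others. Doublet-like cells were 229 of the transferred and 115 of the endogenous class. The 56 genes with an absolute log2 ratio between 0.9 and 1 lie just under the threshold and the 34 between 1 and 1.1 just over it. No paired analysis was possible because each class comes from 1 library, and there was no replicate to leave out. The planned day 20 comparison of transferred with endogenous effector cells was not run, since no transferred cell of day 20 has that name. A library, sort or animal difference cannot be told apart from the origin of the cells, and a gene with 0 UMIs is limited to 0.908 CPM in the transferred and 1.80 CPM in the endogenous class.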

Other observations

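Other called genes, chosen after their values were seen, included surface and secreted molecules. DPP4, the peptidase CD26, was at 140 CPM in transferred and 31.9 CPM in endogenous effector cells of day 3. ALCAM, the ligand of CD6, was at 79.9 and 19.3 CPM, SEMA4D, a semaphorin of lymphocytes, at 154 and 45.1 CPM, and CD86, a ligand of CTLA4 and CD28, at 109 and 39.1 CPM. The growth factor gene CSF1 was at 215 CPM in transferred and 81.2 CPM in endogenous cells and the receptor IL11RA at 269 and 99.8 CPM. TXNIP, an inhibitor of glucose uptake, was at 971 and 292 CPM, and TSC22D3, a glucocorticoid-induced gene, at 523 CPM in transferred and 214 CPM in endogenous cells of day 3, beside 492 CPM in endogenous effector cells of day 20. GCLM, a subunit of the enzyme that starts glutathione synthesis, was at 316 and 83.0 CPM.

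Among the lower genes chosen in the same way, PTTG1, the securin of dividing cells, was at 163 CPM in transferred and 547 CPM in endogenous cells, ODC1, the first enzyme of polyamine synthesis, at 28.5 and 120 CPM, and NPM1, the nucleolar protein nucleophosmin, at 11.8 and 59.5 CPM. ITM2A, a membrane protein of T cells, was at 110 and 454 CPM, and CASP12 at 70.9 and 345 CPM. HOPX, a transcription cofactor of effector T cells, was at 38.8 and 104 CPM.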
